A study of Mus musculus with 38 samples.

Results

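The data compared here are RNA from polysomes and RNA from lighter fractions of mouse oocytes in metaphase II (MII), the stage at which the ovulated egg waits for the sperm. The libraries were chosen by their column names, 3 polysome (P) and 3 non-polysome (NP), and are 6 of the 38 samples of the series. The series profiled oocytes and early embryos by scarce-sample polysome profiling, a sucrose gradient method for small numbers of cells, and describes its replicates as biological. Oocytes came from ICR mice of at least 6 weeks that had received 5 IU of PMSG 46 h before isolation. Fully grown germinal vesicle (GV) oocytes, arrested in prophase before maturation, were freed of cumulus cells and cultured for 12 h to reach MII, so these eggs matured in vitro. Cycloheximide, which stalls ribosomes on mRNA, was given to all groups before lysis. Each lysate was run through a gradient of 10 to 50% sucrose and collected as 10 fractions, of which the lighter 5 were pooled as NP and the heavier 5 as P. The letters A, B and C were read as 3 gradients, each giving 1 NP and 1 P library. The same fractions of GV oocytes and of zygotes, 3 gradients each, served for comparison. The zygotes were recovered from the oviducts of females that had also received hCG and been mated, so they arose from eggs matured and fertilized in vivo, and in the comparison of MII oocytes with zygotes the stage and the way of maturation cannot be told apart.

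An mRNA that carries several ribosomes sediments with polysomes, whereas free mRNPs, single ribosomes and stored messages stay in the light fractions. Fully grown oocytes do not transcribe, so which proteins are made during maturation depends on which stored mRNAs are recruited to ribosomes. Many recruited mRNAs carry a cytoplasmic polyadenylation element (CPE), a U-rich motif near the 3′ end that binds CPEB1 and allows the poly(A) tail to be lengthened when meiosis resumes. Short open reading frames hold few ribosomes at once, which is a general property of polysome gradients.

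Of the 9076 genes tested, 199 were higher in NP and 42 were higher in P, at an adjusted p under 0.05 and a fold change beyond 2 (limma, with the gradient as a block). The counts in NP and P were 160 and 89 after quantile normalization and 79 and 28 after median centring, and with any 1 gradient left out limma called none, while 822 to 1159 genes in NP and 489 to 778 in P had an unadjusted p under 0.05. The NP-enriched genes held many mRNAs for very small proteins, such as subunits of cytochrome c oxidase and other respiratory complexes and small ribosomal proteins. The anaphase inhibitor securin (Pttg1), of 199 codons, was also among them. The P-enriched genes with a level above the floor in both fractions included 3 tubulins. The complete coding sequences of 3 strongly NP-enriched mRNAs are printed to show how short they are, read 5′ to 3′ on the minus strand of GRCm38 from GENCODE M21, with the start and stop codons in capitals. Cox7c (chr13:86045753-86046675, 192 nt over 2 exons) and Cox6c (chr15:35935300-35937271, 231 nt over 2 exons) encode oxidase subunits, and Tomm6 (chr17:47687192-47688026, 225 nt over 2 exons) encodes a small part of the import channel of the mitochondrial outer membrane.
Cox7c: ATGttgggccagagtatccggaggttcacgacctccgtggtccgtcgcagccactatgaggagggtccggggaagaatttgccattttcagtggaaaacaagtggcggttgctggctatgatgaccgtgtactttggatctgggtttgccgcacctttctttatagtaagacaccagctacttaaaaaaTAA
Cox6c: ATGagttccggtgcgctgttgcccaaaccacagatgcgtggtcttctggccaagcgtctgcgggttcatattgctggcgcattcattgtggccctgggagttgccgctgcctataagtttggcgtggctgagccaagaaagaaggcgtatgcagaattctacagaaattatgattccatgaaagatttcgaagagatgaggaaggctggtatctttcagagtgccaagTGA
Tomm6: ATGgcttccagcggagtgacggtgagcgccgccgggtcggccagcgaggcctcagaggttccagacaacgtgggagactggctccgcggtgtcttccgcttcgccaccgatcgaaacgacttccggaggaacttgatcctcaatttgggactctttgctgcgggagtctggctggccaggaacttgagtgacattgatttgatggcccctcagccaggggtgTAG

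The libraries were checked before any comparison. A depth of 19310000 to 26660000 fragments per MII library was estimated from the steps of low values of genes with a single transcript, and is approximate, since only 33.1 to 35.6% of these values lay within 2% of a whole number of fragments. Between 9197 and 9755 genes exceeded 0.1 FPKM in NP and between 9928 and 10183 in P (exact permutation test, two-sided, p = 0.1, the smallest that 3 against 3 can give). The P libraries resembled each other more (Pearson r of log2 values across genes, 0.916 to 0.928) than the NP libraries did (0.760 to 0.818), and NP A stood apart from the other 5 libraries (0.729 to 0.765). Pairs of 1 NP and 1 P library had an r of 0.729 to 0.841, or 0.807 to 0.841 without NP A, so NP libraries correlated with P libraries about as well as with each other. Oocyte markers were present, with 12 of 16 at 10 FPKM or more in some library, although the germ cell helicase Ddx4 and the receptor Kit stayed below 1 FPKM. Of 19 granulosa and cumulus cell markers, 7 were at the floor of the table (0.01 FPKM) in all 6 libraries, 15 stayed below 1 FPKM, and Inha alone reached 10 FPKM (highest value 23.5). The summed level of these 19 markers was 12.4 to 33.9 FPKM in NP and 9.82 to 15.3 FPKM in P, and its part in the results was not tested. All 4 red blood cell markers stayed below 1 FPKM. FPKM is relative to the RNA of each fraction, so a difference is not the share of an mRNA on ribosomes, and fewer cells in a pool and less RNA per cell cannot be told apart.

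**Figure D1:**
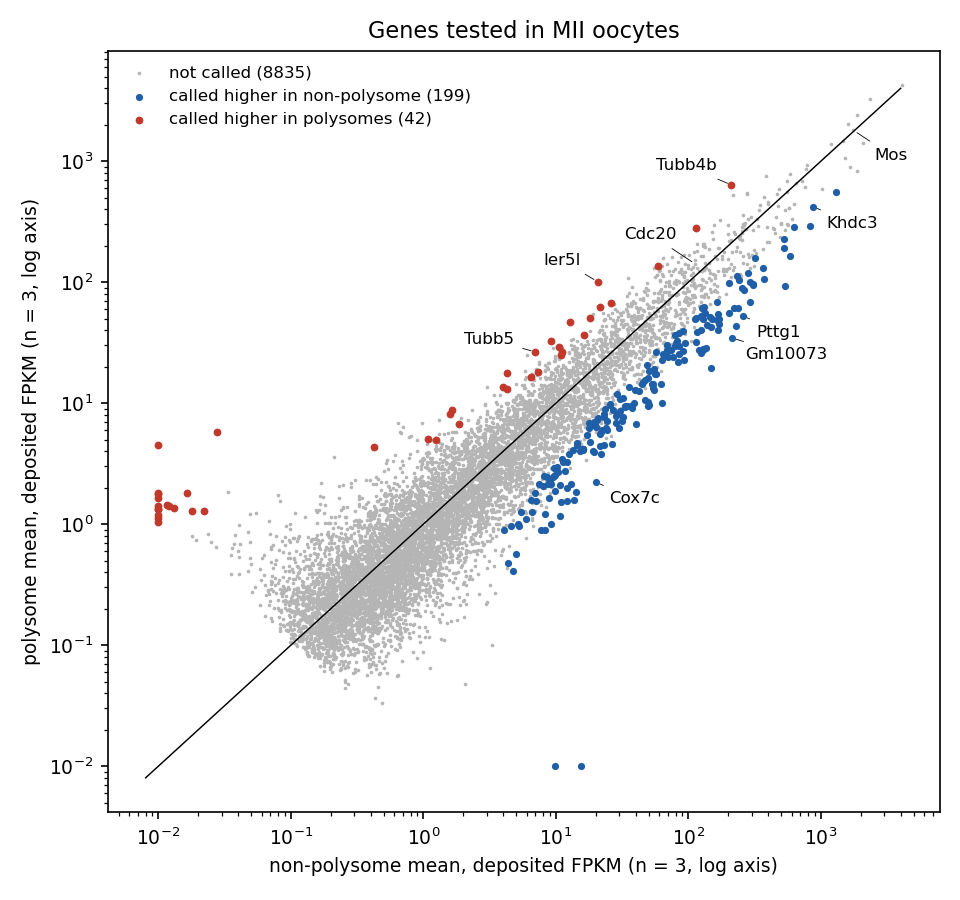
Mean deposited FPKM of each of the 9076 genes tested in the 3 non-polysome (x axis) and 3 polysome (y axis) libraries of MII oocytes, both axes logarithmic, with the line of equal values. Blue points are the 199 genes called higher in the non-polysome fraction and red points the 42 called higher in polysomes, of which 17 lie at or near the floor on the left.

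Background shares were low, since 2.19% of the genes tested were called in NP and 0.463% in P. The median log2 difference of all genes tested, P minus NP, was -0.06. Without regard to a test, 1650 genes (18.2%) had all 3 NP values above all 3 P values, and 1112 genes (12.3%) the reverse. Of the 42 genes called in P, 17 averaged under 0.1 FPKM in NP and rest on values at or near the floor, so no fold is given for them. Hist1h2ae, a replication-dependent histone gene, was one of these, listed at the floor in all 3 NP libraries and at 1.37, 1.49 and 2.57 FPKM in P. The other 25 differed by 1.17 to 3.40 on the log2 scale, with a median of 1.6 or 3.03-fold. Of the 199 genes called in NP, 197 had a P mean of at least 0.1 FPKM and a median log2 difference of -1.82, which is 3.53-fold. Both means reached 1 FPKM for 188 of the 199 and for 24 of the 42.

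Respiratory chain mRNAs were the group with the most calls in NP. Of 79 nuclear-encoded subunits of oxidative phosphorylation tested, 24 were called in NP, against 2.19% of all genes tested, and none in P. Their median log2 difference was -1.01 against -0.06 for all genes tested. Only 10 of the 79 were higher in P by sign, and 53 had NP values above all P values, against 18.2% of all genes tested. Measured from the median of all tested genes in the same coding-length bin (described below), the list median was -0.42. Cox7c was at 19.0, 25.4 and 16.4 FPKM in NP of gradients A, B and C and at 2.36, 2.15 and 2.13 FPKM in P. The fractions were far apart in every gradient, a 9.01-fold difference in favour of NP (log2 difference -3.17, SE 0.25, limma adjusted p = 0.0357). Cox6c, which encodes another oxidase subunit, was at 10.9, 13.7 and 7.53 FPKM in NP and at 1.04, 1.27 and 1.16 FPKM in P (log2 difference -3.17, limma adjusted p = 0.0401).

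By complex, cytochrome c oxidase (complex IV) was the most one-sided, with 8 of 14 subunits called in NP, a median of -1.94 and no subunit above 0. Cox6b2, the testis-type form of an oxidase subunit, had an NP mean of 40.4 ± 10.4 FPKM and a P mean of 6.72 ± 1.41 FPKM (SD, n = 3). Cox6a1 was at 53.1, 57.8 and 39.2 FPKM in NP and at 10.4, 10.8 and 7.57 FPKM in P. Complex I, the NADH dehydrogenase, had 10 of 36 subunits called and a median of -1.02. Ndufs5 had the smallest log2 difference of the 24 called subunits at -1.55, with 17.5, 20.7 and 20.2 FPKM in NP and 5.54, 6.39 and 8.21 FPKM in P. In all, 3 of 9 subunits of complex III and 3 of 15 of the ATP synthase (complex V) were called, with medians of -0.91 and -1.0. After median centring 12 subunits were called, and Ndufs5 was not among them (limma adjusted p = 0.0548). Complex II, succinate dehydrogenase, had none of 4 called and a median of -0.22. Its subunits had a median coding length of 680 nt, against 261 nt for complex IV.

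Other groups of mitochondrial mRNAs had fewer calls. Tomm6 was at 17.8, 11.6 and 13 FPKM in NP and at 1.91, 1.81 and 1.80 FPKM in P, a 7.56-fold difference (log2 difference -2.92, SE 0.25, limma adjusted p = 0.0357). All P values lay well under the lowest NP value. Together with Tomm7 and Timm8b, both small members of the import machinery, Tomm6 made up the 3 of 21 mitochondrial import genes called in NP. The share of all genes tested was 2.19%. The median of the list was -0.43, and -0.01 when measured from the median of each coding-length bin. After median centring the list had 1 call. Romo1, a small inner membrane protein that affects reactive oxygen species, was at 69.1, 65.0 and 56.4 FPKM in NP and at 14, 9.72 and 6.07 FPKM in P (log2 difference -2.75, limma adjusted p = 0.0357). Cox17, the copper chaperone of the oxidase, averaged 10.7 ± 2.24 FPKM in NP and 2.12 ± 0.866 FPKM in P (SD, n = 3). Of 76 mitochondrial ribosomal protein genes none was called in either direction, and their median was -0.25, but 4 were called in NP without the gradient block and 6 with a minimum of 1 FPKM. The table holds no mRNA encoded by the mitochondrial genome.

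Ribosomal protein mRNAs were called on the NP side alone. Of 83 cytosolic ribosomal protein genes 6 were called in NP and none in P, with a median of -0.67, and 47 of them had no overlap with NP higher. Rps29, which encodes one of the smallest proteins of the small subunit (56 codons), was at 133, 120 and 151 FPKM in NP and at 29.3, 29.8 and 25.9 FPKM in P. The fractions did not overlap (log2 difference -2.24, SE 0.18, limma adjusted p = 0.0357). Rplp1, a stalk protein of the large subunit, averaged 168 FPKM in NP and 40.1 FPKM in P (log2 difference -2.12). The remaining called members were Rps21, Rps27rt, Rpl41 and Rpl39, the last with a log2 difference of -1.6 and 51 codons. After median centring the list had 4 calls, and Rpl39 was not called (limma adjusted p = 0.0533). Ribosomal protein genes have many near-identical copies in the genome, and how reads were split between copies is not known here.

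None of the 45 translation initiation factors tested was called, with a median of 0.01, and one of -0.09 after quantile normalization. Nor was any call made among 12 elongation factors and other mRNAs with a terminal oligopyrimidine tract (median 0.16) or among 18 aminoacyl-tRNA synthetases, which charge tRNAs (median 0.35), although both of these last lists had 1 call in P with a minimum of 1 FPKM. At the background shares of 2.19% in NP and 0.463% in P, few calls would fall in lists of these sizes, and nothing is read from their absence. The Sm and LSm proteins, small cores of spliceosomal and decay complexes, had a median of -1.03. Measured from the median of each coding-length bin it was -0.20. Of 20 members, 14 did not overlap with NP higher, against 18.2% of all genes tested. None was called with the gradient block, against 6 in NP without it and 7 with a minimum of 1 FPKM. Among RNA polymerase subunits, 2 of 22 were called in NP. Polr2l was at 120, 109 and 121 FPKM in NP and at 40.4, 46.6 and 29.3 FPKM in P (log2 difference -1.61, limma adjusted p = 0.0436). Polr2j averaged 68.1 FPKM in NP and 25.4 FPKM in P (log2 difference -1.42), and neither gene was called after median centring (limma adjusted p = 0.0533 and 0.0502). Nop10, a core protein of H/ACA snoRNPs, was the called member of the nucleolar list, with 114 ± 15.5 FPKM in NP and 32.1 ± 0.816 FPKM in P (SD, n = 3).

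**Figure D2:**
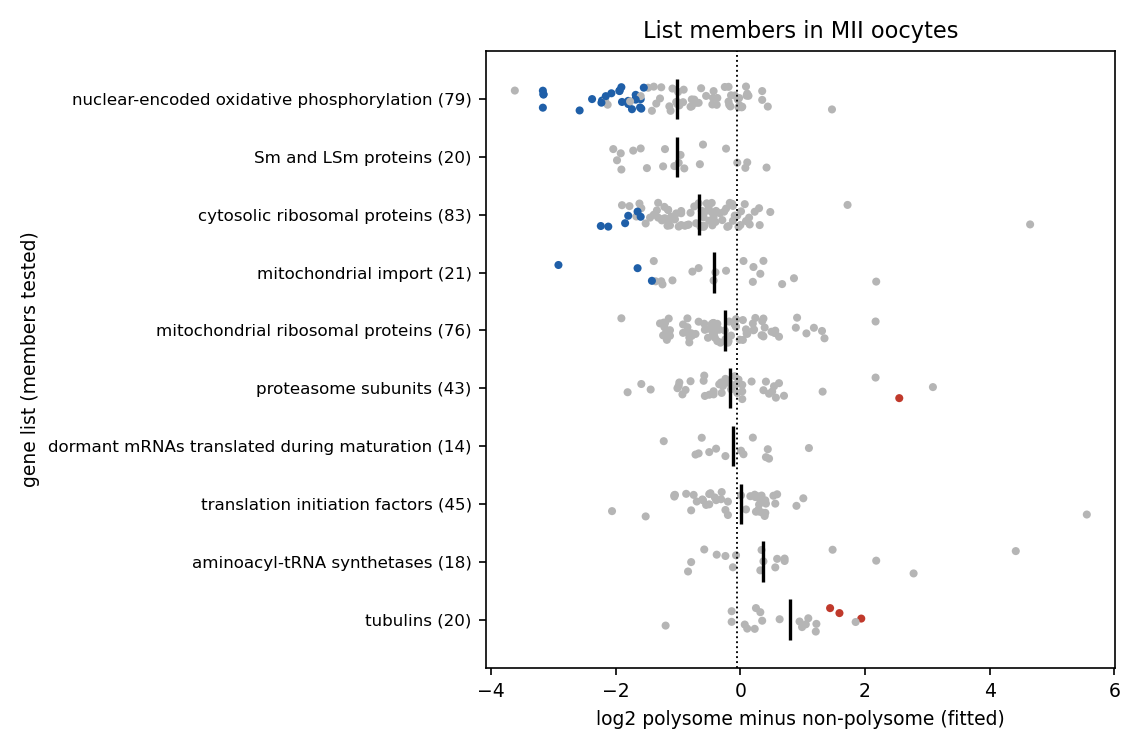
Fitted log2 difference, polysome minus non-polysome, of each tested member of 10 gene lists in MII oocytes. Blue and red points are members called higher in the non-polysome and polysome fraction, and grey points were not called. Thick bars are list medians and the dotted line is the median of all genes tested (-0.06). Oxidative phosphorylation sits lowest with the Sm and LSm proteins (-1.01 and -1.03). The tubulin list, which includes Tubgcp2, Tubgcp4 and Tubgcp5, sits highest (0.79).

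Tubulins are the building blocks of the meiotic spindle. Their list also held the gamma-tubulin complex genes Tubgcp2, Tubgcp4 and Tubgcp5, which are not tubulins. It had the most calls in P, 3 of 20 against 0.463% of all genes tested, all of them tubulins, and none in NP. The median of this list was 0.79 and 17 of its 20 members were higher in P by sign. Tubb5 was at 5.78, 6.41 and 8.74 FPKM in NP and at 26.2, 22.8 and 30.4 FPKM in P, a 3.83-fold difference (log2 difference 1.94, SE 0.20, limma adjusted p = 0.0404). Every P library exceeded every NP library. Tubb4b, at a higher level, was at 167, 224 and 243 FPKM in NP and at 562, 551 and 796 FPKM in P (log2 difference 1.59, limma adjusted p = 0.0404). Tuba3a was at 14.1, 31.0 and 32.7 FPKM in NP and at 49.4, 68.3 and 84.1 FPKM in P (log2 difference 1.44, limma adjusted p = 0.0464), and it was no longer called without the gradient block (limma adjusted p = 0.0752) or after median centring (0.0533). Tuba4a, with 276 FPKM in NP and 534 FPKM in P, did not pass the test (log2 difference 0.95, limma adjusted p = 0.0533). Tubulin genes are close paralogues, so the share of reads given to each is uncertain.

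The remaining P-enriched genes named by rule had diverse roles. Ier5l, an immediate early response 5-like gene, was at 25.8, 23.6 and 12.3 FPKM in NP and at 82.3, 147 and 74.4 FPKM in P, 4.93-fold higher (log2 difference 2.30, limma adjusted p = 0.0404). Uba1, the E1 enzyme that activates ubiquitin, was at 4.53, 4.48 and 3.78 FPKM in NP and at 14.2, 10.9 and 13.8 FPKM in P (log2 difference 1.6, limma adjusted p = 0.0475). In both genes the lowest P value lay above the highest NP value. Mcat, an enzyme of mitochondrial fatty acid synthesis, averaged 4.26 ± 0.953 FPKM in NP and 17.6 ± 2.07 FPKM in P (SD, n = 3). The zinc finger gene Zfp574 averaged 12.8 ± 5.46 and 46.4 ± 5.05 FPKM (SD, n = 3). Cbx2, a chromodomain protein of Polycomb complexes, averaged 10.6 ± 0.224 and 29.2 ± 5.21 FPKM (SD, n = 3). Ppan, a ribosome biogenesis factor, had a log2 difference of 1.54, Lmf2, a lipase maturation factor, of 1.47, Ranbp3, a cofactor of nuclear export, of 1.77 and Fam83g of 1.34. Uba1, Ranbp3 and Fam83g were not called after median centring (limma adjusted p = 0.0533, 0.0542 and 0.0533). Psmd3, a lid subunit of the proteasome, was the called member of 43 proteasome genes (median -0.17), against 0.463% of all genes tested in P. It was at 0.711, 1.83 and 2.40 FPKM in NP and at 6.34, 8.90 and 11.1 FPKM in P.

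Regulators of the metaphase arrest and of its release differed among themselves. Mos, the kinase that drives the arrest through MAPK, was at 1333, 1672 and 2279 FPKM in NP and at 1442, 2021 and 1926 FPKM in P. These ranges overlap (log2 difference 0.05, SE 0.18, limma adjusted p = 0.886). Mapk3, which encodes ERK1 downstream of Mos, was at 97.2, 97.0 and 61.8 FPKM in NP and at 34.3, 25.3 and 28.5 FPKM in P (log2 difference -1.52, limma adjusted p = 0.0468), and it was the called member of 9 genes of the Mos-MAPK list, whose median was 0.52. It was not called after quantile normalization (limma adjusted p = 0.0575) or median centring (0.0620). At a background share of 2.19% in NP, 1 call is not read as a trait of that list. Securin (Pttg1), which holds separase inactive until anaphase, was at 233, 319 and 229 FPKM in NP and at 51.0, 55.1 and 51.4 FPKM in P. Its P values were tightly grouped, 4.91-fold under NP (log2 difference -2.29, SE 0.16, limma adjusted p = 0.0357). Cdc20, the activator of the anaphase promoting complex that marks securin for destruction, was at 100, 117 and 121 FPKM in NP and at 130, 136 and 157 FPKM in P. Its 3 P values lay above its 3 NP values, but the difference of 0.32 did not pass the test (limma adjusted p = 0.273).

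Cyclin B1 (Ccnb1), the partner of Cdk1, was at 117, 82.5 and 76.9 FPKM in NP and at 122, 108 and 132 FPKM in P (log2 difference 0.41, limma adjusted p = 0.290). The fractions overlapped. Cks2, a small Cdk-binding protein of 79 codons, was at 16.8, 19.6 and 21.5 FPKM in NP and at 3.47, 4.41 and 3.91 FPKM in P (log2 difference -2.30, limma adjusted p = 0.0362). It was the called member of 19 cyclins and Cdk1 regulators (median -0.24). Anapc11, the RING subunit of the anaphase promoting complex with 84 codons, was at 9.23, 11.8 and 8.56 FPKM in NP and at 1.99, 2.07 and 1.57 FPKM in P (log2 difference -2.39, limma adjusted p = 0.0404). Anapc11 and Pttg1 were called out of 30 genes of that complex and the checkpoint (median -0.19), against background shares of 2.19% in NP and 0.463% in P. Nothing is read from the number of calls in this list or in that of the cyclins. Birc5, the survivin subunit of the Aurora B complex, had a log2 difference of -1.28, and Cenpw, a histone-fold protein of the kinetochore, one of -2.08. Neither was called after median centring (limma adjusted p = 0.0602 and 0.0587), and Birc5 was not called after quantile normalization (0.0626). None of 16 kinesins was called (median 0.23), from which nothing is read at these background shares. The spindle assembly factor Tpx2 was low in both fractions, with 1.15 ± 0.742 FPKM in NP and 0.908 ± 0.357 FPKM in P (SD, n = 3).

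mRNAs of oocyte-specific proteins differed among themselves. Of 7 oocyte-secreted factors 2 were called in NP, against 2.19% of all genes tested, with a list median of -0.68. Bmp15, a growth factor that signals to cumulus cells, was at 125, 131 and 87.2 FPKM in NP and at 51.1, 59.6 and 42.2 FPKM in P (log2 difference -1.16, limma adjusted p = 0.0439). Its partner Gdf9 was at 513, 660 and 558 FPKM in NP and at 386, 379 and 473 FPKM in P, which did not overlap but did not pass the test (log2 difference -0.48, limma adjusted p = 0.206). Oosp2, an oocyte-secreted protein, averaged 23.2 ± 7.43 FPKM in NP and 8.08 ± 2.04 FPKM in P (SD, n = 3). Of 8 members of the subcortical maternal complex, a structure that early embryos need, 2 were called in NP, against the same 2.19%. Their median was -0.59. Ooep was at 474, 520 and 591 FPKM in NP and at 169, 231 and 284 FPKM in P (log2 difference -1.24, limma adjusted p = 0.0436). Khdc3 averaged 878 ± 97.6 FPKM in NP and 419 ± 41.1 FPKM in P (SD, n = 3), a log2 difference of -1.07. Both genes were higher in NP in all 3 gradients, but neither was called after quantile normalization (limma adjusted p = 0.0662 for Ooep and 0.0660 for Khdc3) or after median centring (0.0542 and 0.0587). Bmp15 was also not called under these scalings (0.0632 and 0.0552), nor Oosp2 after centring (0.0552). Nlrp5, which belongs to the same complex, was low at 1.83 ± 0.477 and 1.10 ± 0.763 FPKM (SD, n = 3).

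None of 8 zona pellucida and sperm-egg interaction genes was called (median -0.59). At the background shares of 2.19% in NP and 0.463% in P, nothing is read from this or from the storage list below. Zp3, which encodes a zona glycoprotein, was at 460, 676 and 473 FPKM in NP and at 295, 262 and 247 FPKM in P, lower in every P library but short of the threshold (log2 difference -0.98, limma adjusted p = 0.0772). Zp2 averaged 21.4 and 13.9 FPKM and Zp1 averaged 261 and 294 FPKM in NP and P. The linker histone of oocytes, H1foo, was at 1116, 1142 and 1304 FPKM in NP and at 1308, 1021 and 1845 FPKM in P, with overlapping ranges. Zar1, an RNA-binding protein of maternal mRNA storage, differed by 0.03 (SE 0.15), with 326, 357 and 299 FPKM in NP and 330, 333 and 337 FPKM in P. Ybx2, another storage protein, averaged 4.98 ± 1.36 and 3.72 ± 0.990 FPKM (SD, n = 3), and none of 16 storage and repression genes was called (median 0.17), against 1 in P after quantile normalization. Cdk1 averaged 3.32 ± 1.37 and 2.37 ± 0.692 FPKM (SD, n = 3), with a log2 difference of -0.44.

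**Figure D3:**
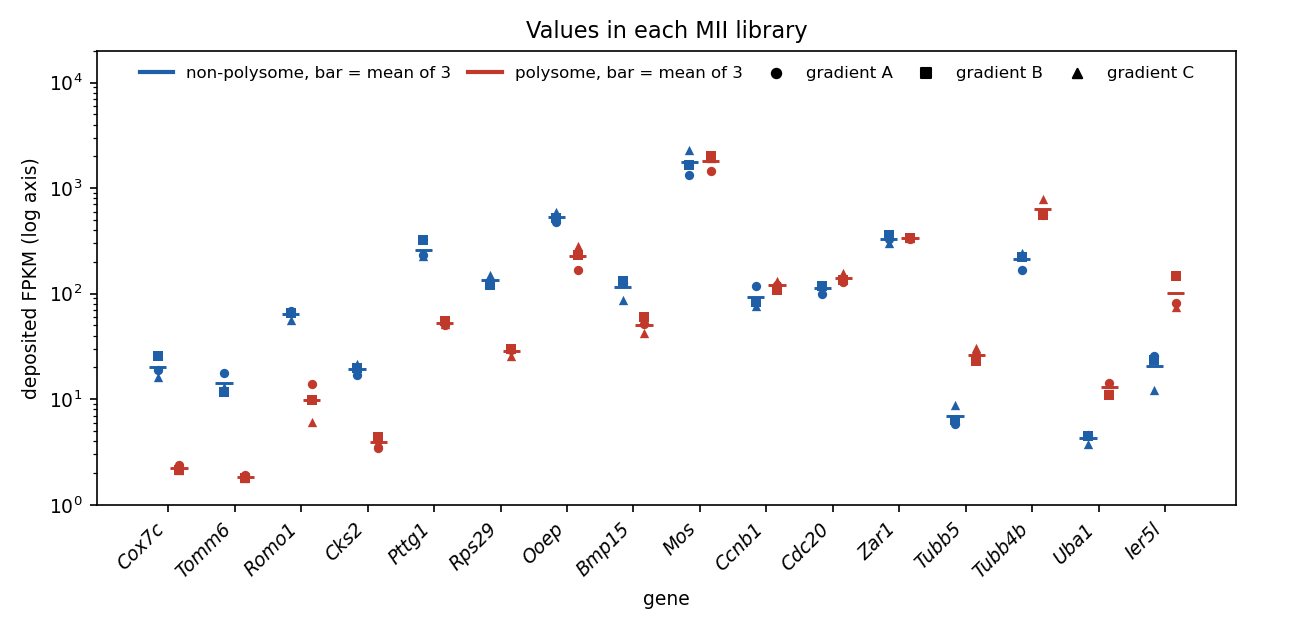
Deposited FPKM (log axis) of 16 named genes in each MII library, with non-polysome libraries in blue, polysome libraries in red, bars at the mean of 3 and a marker shape for each gradient. Cox7c, Tomm6, Romo1, Cks2, Pttg1, Rps29, Ooep and Bmp15 have every non-polysome value above every polysome value, Mos, Ccnb1 and Zar1 overlap, and Tubb5, Tubb4b, Uba1 and Ier5l lie higher in polysomes without overlap.

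The differences varied with coding length. Coding and transcript length, the lengths of both UTRs, GC content, the CPE, the polyadenylation signal and the gene biotype were looked at, most of them after these values had been seen, and they are given as descriptions. Among 6671 tested genes with a coding length, the 109 called in NP had a median of 321 nt and the 26 called in P one of 1498 nt, against 1185 nt for all. Of the 109, 82 (75.2%) had at most 450 nt, against 10.1% of all. Genes of up to 300 nt (n = 200) had a median log2 difference of -1.25, and 49 of them were called in NP and none in P. In the next bins the median rose to -0.70 up to 450 nt (n = 474), -0.39 up to 600 nt (n = 519) and -0.09 up to 900 nt (n = 1112). It was 0.23 up to 1500 nt (n = 2020), 0.39 up to 3000 nt (n = 1821) and 0.23 above 3000 nt (n = 525). No gene over 1500 nt was called in NP. Genes of at most 450 nt had medians lower than those over 900 nt by 1.21, 0.90 and 1.26 in gradients A, B and C.

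**Figure D4:**
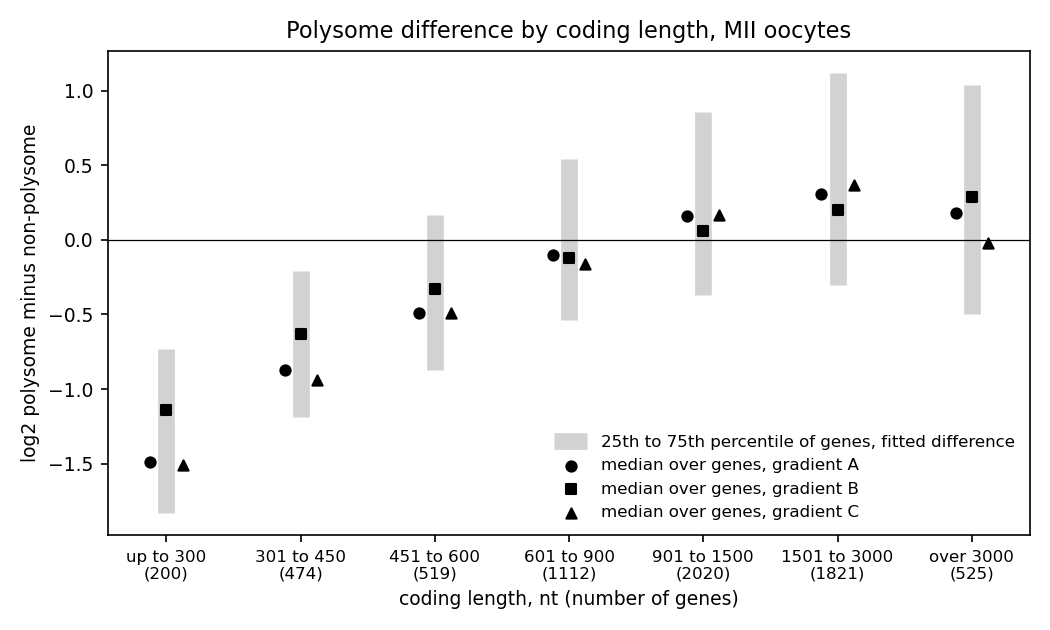
Median log2 difference, polysome minus non-polysome, over genes in 7 bins of coding length (x axis, number of genes in brackets), shown for each of the 3 MII gradients, with grey bars from the 25th to the 75th percentile of the fitted differences. In every gradient the bin up to 300 nt is lowest (fitted median -1.25) and bins over 900 nt lie near or above 0.

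GC content and transcript length moved with the same differences, and their parts were not separated by a test. Transcripts of at most 45% GC had a median of -0.52 (n = 1253) and those over 60% GC one of 0.45 (n = 339). Within coding lengths over 900 and up to 1500 nt, the median ran from -0.43 at the lowest GC to 0.51 at the highest. Within 50 to 55% GC, it ran from -1.45 at up to 300 nt to 0.63 between 1500 and 3000 nt. Within transcripts over 1500 and up to 2500 nt, coding lengths of up to 450 nt had a median of -0.48 and those over 1500 nt one of 0.42. The length pattern was not particular to MII: the gap between genes of at most 450 nt and those over 900 nt averaged -1.13 ± 0.20 in MII, -0.73 ± 0.49 in GV and -0.93 ± 0.29 in zygotes (SD over n = 3 gradients), with overlapping ranges. An exception lay at the long end. Krt12, a keratin of 487 codons, was at 5.11, 7.65 and 6.57 FPKM in NP and at 1.70, 1.48 and 1.53 FPKM in P, and its 1464 nt were the longest coding sequence among the genes called in NP, though it was not called after quantile normalization (limma adjusted p = 0.0506) or median centring (0.0627).

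Long noncoding RNAs, which have no known protein, had a median log2 difference of -0.60 (n = 530) against 0.04 for 7363 protein-coding genes. Of the 530, 7 were called in NP (1.32%, against 2.19% of all genes tested and 1.6% of protein-coding genes) and none in P. Gm10076 was the most abundant of the 7, at 527 ± 51.4 FPKM in NP and 192 ± 43.3 FPKM in P (SD, n = 3). Snhg18, a snoRNA host transcript, was at 8.53, 8.68 and 8.31 FPKM in NP and at 2.49, 2.5 and 2.30 FPKM in P, which is 3.51-fold (log2 difference -1.81, limma adjusted p = 0.0436, and 0.0533 after median centring). It was called out of 10 snoRNA host transcripts, none of which was higher in P, with a median of -1.80. Gas5, another host, was low and variable, at 0.199, 0.693 and 1.06 FPKM in NP and at 0.148, 0.397 and 0.205 FPKM in P. Processed pseudogenes had a median of -0.57 and can share reads with their parent genes. Of 920, 61 were called in NP (6.63%, against 2.19% of all genes tested) and 6 in P, where the share of all was 0.463%. Gm10073, annotated as protein-coding with 114 codons, was at 234, 211 and 197 FPKM in NP and at 32.9, 44.1 and 26.3 FPKM in P. The poorly described genes 2010107E04Rik and Gm1673 were 7.94-fold and 6.07-fold higher in NP.

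The next comparison asked how MII differs from the same oocyte before maturation, by the difference between P and NP in MII minus that in GV. It uses the same MII libraries as above, so its values are not independent of those already given. Of 8694 genes tested, 13 were higher in MII (0.15%) and 1 was lower (0.0115%), and the median of all was -0.61. These counts were 53 and 6 after median centring, 46 and 9 after quantile normalization and 90 and 66 without the gradient block. Limma called none with any 1 MII gradient left out, and no GV gradient was left out. In those fits 329 to 375 genes were higher and 566 to 571 lower at an unadjusted p under 0.05. The protein-coding genes with the largest changes had far lower P than NP values in GV. Obox5, an oocyte-specific homeobox gene, was at 254, 252 and 104 FPKM in NP and at 6.99, 6.97 and 4.2 FPKM in P of GV oocytes. In MII it was at 132, 75 and 73.5 FPKM in NP and at 66.6, 57.2 and 40.4 FPKM in P. The change was 4.25 (SE 0.35, limma adjusted p = 0.0399), and P stayed below NP in every MII gradient. Cdc20 was at 77.3, 51.4 and 42.6 FPKM in NP and at 4.77, 5.85 and 4.48 FPKM in P of GV oocytes, against 130 to 157 FPKM in P of MII oocytes (change 3.79, SE 0.36, limma adjusted p = 0.0399).

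D6Ertd527e changed by 4.01 (limma adjusted p = 0.0416), with 252, 242 and 60.1 FPKM in NP and 5.60, 6.81 and 2.60 FPKM in P of GV oocytes. In MII its P values were 89.3, 77.8 and 23.3 FPKM beside NP values of 185, 112 and 68.5 FPKM, and it was no longer called without the gradient block (limma adjusted p = 0.0665). Stoml2, a scaffold protein of the inner mitochondrial membrane, changed by 3.85 (limma adjusted p = 0.0484), from 5.10, 5.70 and 7.63 FPKM in P of GV oocytes to 40.0, 43.9 and 63.9 FPKM in P of MII oocytes. Its NP values were 80.4, 89.8 and 50 FPKM in GV and 28, 35.1 and 62.4 FPKM in MII, so that P exceeded NP in each MII gradient and lay below it in each GV gradient. Gm4981 changed by 3.86 (limma adjusted p = 0.0416), from 17.4, 16.8 and 15.6 FPKM to 57.6, 35.6 and 68.9 FPKM in P. The other called genes were Mphosph6, an exosome cofactor, Dazap2, Sap30, a subunit of the Sin3 histone deacetylase complex, Fpgs, which adds glutamates to folate, Taz, AU022751, Cdc34b and the pseudogene Gm7061, whose NP level in MII oocytes was near the floor at 0.0277 ± 0.0306 FPKM (SD, n = 3). The gene called lower, the pseudogene Gm9035, is listed at the floor in NP of all 3 GV gradients.

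Dormant mRNAs, those known to be translated only once maturation starts, did not pass this test as single genes. None of 14 was called, although 12 of 14 were higher in MII and their median was 1.91 against -0.61 for all genes tested. In 9 of 14 the 3 MII differences lay above the 3 GV differences, against 8.22% of all genes tested. The list was written with earlier results known. Mos went from P minus NP differences of -2.59 to -1.67 in GV to -0.24 to 0.27 in MII, a change of 2.28 (limma adjusted p = 0.0640). Ccnb1 changed by 2.60 (limma adjusted p = 0.125), from -2.98 to -1.0 in GV to 0.06 to 0.78 in MII. Both passed the test without the gradient block (limma adjusted p = 0.0136 and 0.0243). Plat, tissue plasminogen activator, changed by 2.04 and Btg4, an adaptor that recruits the CCR4-NOT deadenylase, by 1.24 with overlap between the stages. Dazl, an RNA-binding protein of germ cells, had a change of -0.39 (limma adjusted p = 0.764). Securin changed by 0.33 (limma adjusted p = 0.670), and its level was 2944 to 3569 FPKM in NP of GV oocytes and 229 to 319 FPKM in NP of MII oocytes.

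The CPE was looked for in the last 150 nt of 3′ UTRs of at least that length, as TTTTAT or TTTTAAT on the mRNA strand, where one match can overlap another. It was present in 24.4% of 12928 coding genes with such a UTR. Windows of 30 nt are shown for genes of these comparisons, from GENCODE M21 on GRCm38, with the 3′-most motif in capitals. They lie at chr6:87112941-87112970 (plus strand, D6Ertd527e), chr10:58234915-58234944 (minus, Gm4981), chr4:118432918-118432947 (minus, Cdc20), chr2:32682630-32682659 (minus, Fpgs), chr13:100778776-100778805 (minus, Ccnb1) and chr11:53437854-53437883 (plus, Gdf9).
D6Ertd527e: tcctgtacatttTTTTATtattgtttgttt
Gm4981: ttttttctttatTTTTATgggtgggttgtc
Cdc20: ttcttgtttttaTTTTATtttttctaataa
Fpgs: aacccttttattTTTTATtttttgtaaata
Ccnb1: tctcatttgctgTTTTAATttatacatctg
Gdf9: agagtgctgtggTTTTATgtgacggaagaa

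Of the 13 genes called higher in MII, 10 had a 3′ UTR long enough and 6 of these held the motif, against 25.3% of the genes with such a UTR tested in both fits. Obox5, Stoml2, Mphosph6 and Cdc34b held neither form in this window. The 3′ UTR of Cdc20 is 62 nt, so it is outside these counts although it holds the motif. Those of Mos (126 nt) and Pttg1 (55 nt) are also too short for the counts and hold neither form. Gdf9, whose window is shown, changed by 0.81 and was not called (limma adjusted p = 0.256). Over all 1383 genes with the motif and 4077 without it, the medians of the MII differences were close, with a gap of -0.22, 0.09 and -0.24 in gradients A, B and C. In GV the genes with the motif lay further toward NP, with gaps of -0.94, -0.97 and -0.45, and in zygotes the gaps were -0.19, -0.26 and -0.12. The gap averaged -0.12 in MII and -0.79 in GV, a shift of 0.66 that was not tested. The cDNA was primed on poly(A), and whether tail length affected the values of these genes or of the dormant mRNAs was not tested. The shift depended on the handling of low values: from the fitted differences it was 0.68, and only 0.23 with 1 FPKM added to every value, while restricted to genes with an MII mean of at least 10 FPKM (216 with the motif and 689 without) the shift of the gradient means was 1.17. The motifs, the window and this restriction were chosen after values of these data had been seen. Within transcripts of at most 50% GC the shift was 0.57, within those over 50% GC it was 0.66, and for coding lengths over 900 nt it was 0.58.

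**Figure D5:**
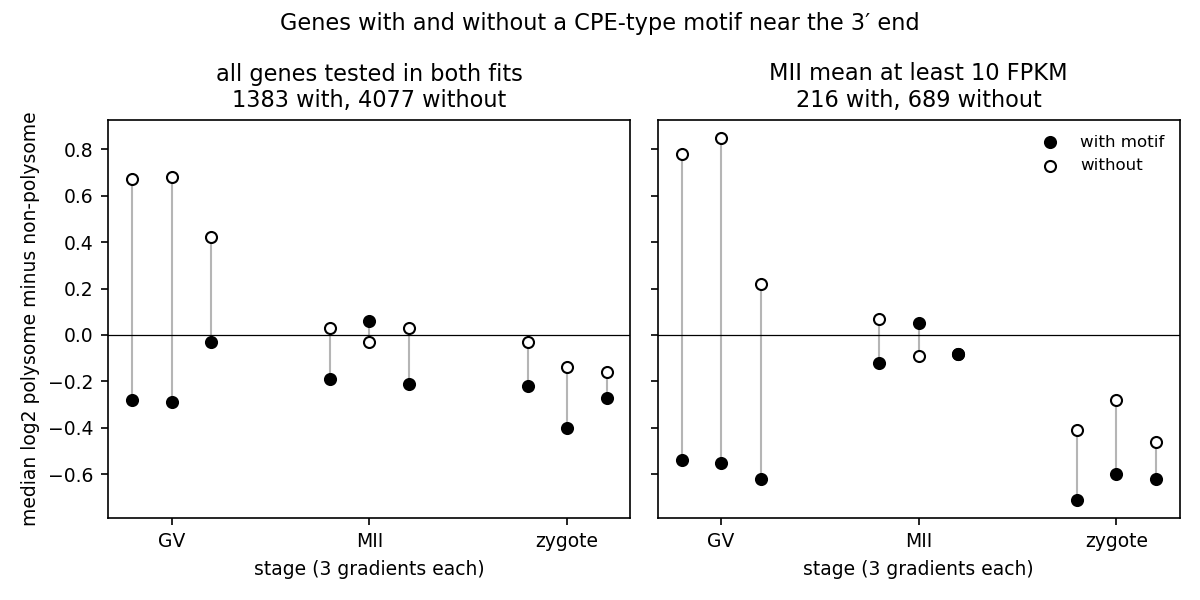
Median log2 difference, polysome minus non-polysome, of genes with (filled) and without (open) the motif in the last 150 nt of the 3′ UTR, for each of 3 gradients in GV oocytes, MII oocytes and zygotes. The left panel holds all genes tested in both fits (1383 and 4077) and the right panel those with an MII mean of at least 10 FPKM (216 and 689); the pairs are wide apart in GV and close in MII.

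Against the zygote, the next stage, 99 of 9334 genes had a higher difference in MII (1.06%) and 16 a lower one (0.171%), with a median of 0.23 over all genes tested. The counts were 24 and 1 without MII replicate A and 36 and 1 without MII replicate C, and no zygote gradient was left out. They were 57 and 11 after median centring and 201 and 41 without the gradient block. The MII libraries are again those already used. Cdc20 showed the largest change by rule, 4.52 (SE 0.27, limma adjusted p = 0.00483), with 34.0, 47.2 and 43.0 FPKM in NP and 2.02, 3.37 and 1.65 FPKM in P of zygotes. Its polysome level was thus high in MII alone of these 3 stages. D6Ertd527e changed by 3.69, with zygote P values of 3.33, 3.78 and 1.94 FPKM. Stoml2 changed by 3.60 (limma adjusted p = 0.00483), with 1.99, 1.38 and 1.31 FPKM in P of zygotes. Fpgs changed by 3.64 (limma adjusted p = 0.0116), with 45.9, 61.8 and 40.4 FPKM in P of MII oocytes and 2.78, 2.00 and 2.38 FPKM in P of zygotes. Mos, by contrast, had a change of -0.03 (SE 0.20) and lay at 76.2, 71.9 and 84.1 FPKM in NP and 70.6, 87.9 and 87.0 FPKM in P of zygotes, a lower level in both fractions.

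Genes with a lower difference in MII than in the zygote were few. E330017A01Rik changed by -2.45 (limma adjusted p = 0.0471), with 135, 136 and 102 FPKM in NP and 31.8, 22.6 and 23.7 FPKM in P of MII oocytes. In zygotes it was at 10.3, 7.42 and 5.78 FPKM in NP and at 6.94, 8.94 and 10.6 FPKM in P. Swi5, a recombination repair protein, changed by -1.87. MII oocytes had 7.57, 6.98 and 5.37 FPKM in NP and 1.0, 1.63 and 1.13 FPKM in P. Zygotes had 29.6, 24.5 and 33.9 FPKM in NP and 18.3, 18.3 and 23.0 FPKM in P, a higher level in both fractions. Krt12 changed by -1.86 and Gm13084 by -1.49. E330017A01Rik and Krt12 were no longer called after median centring, Swi5 and Krt12 with 1 FPKM added, and Gm13084 without the gradient block. Bmp15 also had a lower difference in MII, by -1.36 (limma adjusted p = 0.0257). Securin and Cyclin B1 did not pass the test (changes of 0.05 and 0.13).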

How the data were processed

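The authors trimmed the reads (150-bp paired, cDNA primed on poly(A)) with Trim Galore 0.4.1 and mapped them with STAR 2.5.3a to GRCm38. They quantified genes as FPKM and deposited normalized values (1 table, 23125 genes, 36 libraries). Their methods name Partek Flow for the test of differential expression. For 2 of the 38 samples, both from zygotes, no column was used here. Every deposited FPKM carries an offset of 0.01. A symbol found on 2 rows was left out. The log2 values entered limma 3.58.1 (R 4.3.3) without a pseudocount (empirical Bayes with a trend, two-sided, Benjamini-Hochberg), with the gradient as a block, and genes under a geometric mean of 0.1 FPKM in the fitted libraries were left out. Calls needed an adjusted p under 0.05 and a fold change beyond 2. The stage comparisons were interaction contrasts over 12 libraries each. Deviations of same-letter libraries correlated at 0.096, -0.018 and 0.136 for A, B and C, so the pairing rests on both fractions coming from 1 gradient. The labels do not state this outright, and p-values measure only the spread between these samples.

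Genes were named by rule: the 12 protein-coding genes with the largest difference in each direction (4 for each stage comparison) among called genes that reached a mean of 10 FPKM without overlap, 20 fixed genes, and the extreme called members, of at least 1 FPKM, of 40 gene lists. A gene that the rule named is not reported here. Other genes named were chosen after their values were seen. Members and lists were chosen with earlier results of these data known. Lengths, GC and motifs came from GENCODE M21 transcripts, matched by symbol and position for 20865 genes; the study's methods name RefSeq genes, whereas the positions in the table match an Ensembl annotation, so lengths and motifs may not be those of the gene models counted. Depth was estimated from the steps of low values, of which 33.1 to 35.6% lay within 2% of whole fragments, so it is approximate, and no counting interval was computed. Alternatives were the pseudocount, the minimum, the scaling, the block, the libraries fitted and leaving out MII replicates. Those for coding length and the CPE were added after seeing the data.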

Additional observations from a re-analysis of the deposited data

Results flagged for a closer look

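The results below stood out because the polysome difference was not the same in 2 stages, by the interaction contrast of limma. Against GV oocytes, 13 genes were higher in MII and 1 was lower. The 4 named by rule were Obox5 (4.25), D6Ertd527e (4.01), Gm4981 (3.86) and Stoml2 (3.85), as log2 changes. Against zygotes, 99 genes were higher in MII and 16 were lower. Those named as higher were Cdc20 (4.52), D6Ertd527e (3.69), Fpgs (3.64) and Stoml2 (3.60). Those named as lower were E330017A01Rik (-2.45), Swi5 (-1.87), Krt12 (-1.86) and Gm13084 (-1.49). Both comparisons use the same MII libraries, so the repeated genes are not independent evidence.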

How the results depend on the processing

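The number of calls by limma moved with the settings. None of the called genes named by rule changed direction under any alternative run (other called genes were not followed). Those named by largest difference had been chosen for values without overlap. Their direction therefore could not change without the block, with another minimum, with all 36 libraries or with a replicate left out. Under those settings the unchanged direction is not evidence of robustness. For P against NP in MII, genes called in P and NP (42 and 199 as reported) numbered 110 and 372 without the replicate block, 99 and 327 with 0.1 FPKM added, 119 and 376 with 1 FPKM added, 0 and 0 with no minimum (1247 and 1349 at an unadjusted p under 0.05), 156 and 495 with a minimum of 1 FPKM, 89 and 160 after quantile normalization, 28 and 79 after median centring (which moved the median of all genes from -0.06 to 0.06), 10 and 49 when all 36 libraries shared the error, and 23 and 81 among protein-coding genes. Leaving out replicate A, B or C with its pair gave 0 and 0 (unadjusted 489 to 778 and 822 to 1159). Leaving out 1 library without the block gave 2 to 182 and 61 to 278, the lowest without P replicate A (2 and 61) and P replicate C (8 and 84), the highest in P without NP replicate B (182). The pairing check did not reach the same sign in every letter; of the calls with the block, 40 in P and 192 in NP were also made without it. Of the 45 named genes called, 20 were lost after median centring, 36 with all 36 libraries and 1 without the block.

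For MII minus GV (13 higher and 1 lower), the counts were 90 and 66 without the replicate block (11 and 1 shared), 40 and 3 with 1 FPKM added, 0 and 0 with no minimum, 44 and 14 with a minimum of 1 FPKM, 46 and 9 after quantile normalization, 53 and 6 after median centring, 10 and 8 with all 36 libraries, 19 and 4 among protein-coding genes, and 0 and 0 without replicate A, B or C. Median centring and quantile normalization moved the median of all genes from -0.61 to -0.21 and -0.08. For MII minus zygote (99 and 16), they were 201 and 41 without the replicate block, 13 and 0 with no minimum, 173 and 34 with a minimum of 1 FPKM, 57 after median centring (higher), where the median of all genes moved from 0.23 to 0.09 (-0.03 after quantile normalization), 4 and 0 with all 36 libraries, and 24 to 95 and 1 to 10 without a replicate. The cause was not tested. In both comparisons only MII replicates were left out, never those of GV oocytes or zygotes.

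Respiratory chain calls in NP (24) became 12 after median centring and 39 with a minimum of 1 FPKM. Cytosolic ribosomal protein calls (6) became 4 after median centring, 11 without the replicate block and 19 with that minimum. Import calls (3) became 1 after centring and 5 with that minimum. Calls in P of the tubulin list (3) became 2 after centring, 5 after quantile normalization and 6 with that minimum. The coding length gap of -1.15 became -0.62 with 1 FPKM added, -0.93 with no minimum, -0.79 within transcripts over 1500 and up to 2500 nt and -1.41 within 50 to 55% GC, and was -1.30 to -1.04 with a replicate left out. The CPE shift, 0.68 from the fit and 0.66 from the gradients, became 0.23 with 1 FPKM added. It was 1.17 for an MII mean and 1.29 for a GV mean of at least 10 FPKM. Leaving out an MII replicate gave 0.55 to 0.83. With 2 residual degrees of freedom in the first comparison, small differences were not resolved at this number of gradients.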
